A study of Vitis vinifera with 15 samples.

Results

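Leaves of the grapevine cultivar “Gaglioppo” (Vitis vinifera, Librandi CVT 80 clone) grafted onto the rootstock 3309 Couderc (the combination GAG-3309C) were compared with leaves of the same scion on 1103 Paulsen (GAG-1103P), the rootstock the study took as its reference. 3309 Couderc is a V. riparia × V. rupestris hybrid and 1103 Paulsen a V. rupestris × V. berlandieri hybrid, so that the combinations differ in the root system and share the scion clone. The comparison rested on 6 of the 15 RNA-Seq libraries of the series, 3 of each combination with the letters A, B and C, found by the rootstock in the sample labels. Each library held RNA from non-senescing leaves, pooled from 2 leaves of each of 3 field-grown vines. The combinations stood in adjacent blocks of 1 vineyard, so that rootstock and block cannot be told apart, and the p-values measure the spread between these pools. The other 9 libraries, of “Gaglioppo” on Kober 5BB (GAG-KOB), 41B (GAG-41B) and 17-37Mgt (GAG-17-37), entered the fit and are used below only to show where GAG-3309C stood among the 5 combinations.

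A rootstock takes up water and mineral nutrients and exchanges hormones, sugars and RNA with the scion across the graft union. Among the leaf responses known in grapevine are the phenylpropanoid pathway, which starts with phenylalanine ammonia-lyase and leads to lignin, flavonoids and the stilbene phytoalexins such as resveratrol, and the pathogenesis-related (PR) proteins, which include chitinases, glucanases and thaumatin-like proteins. Abscisic acid (ABA), gibberellins and auxin link growth and water use of the leaf to the supply from the root.

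Levels are FPKM, which scale the reads of a gene to its transcript length and to the size of the library, and each combination is given as its libraries A, B and C in this order or as mean ± SD (n = 3). Fold changes are differences of log2(FPKM + 0.1) with their SE, GAG-3309C minus GAG-1103P, so that changes of genes with low values are understated. Of 29970 genes, 21364 reached 0.1 FPKM on average across the 15 libraries and entered the limma test. DEGs are genes whose adjusted p did not exceed 0.05, and 4-fold DEGs are those that were also 2 or more apart on the log2 scale, up or down. Replicate A stood apart from B and C in both combinations. Over the 2991 genes with a mean above 100 FPKM, the median-based spread of the log2 difference between libraries was 0.252 and 0.259 for A against B and C in GAG-3309C and 0.0796 for B against C. In GAG-1103P the same spreads were 0.181, 0.180 and 0.0759. The FPKM table carries no counts, so the reads behind each value are not given, and the precision was taken from the replicates.

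The study's RT-qPCR reference genes gave a first check. Actin (Vv04s0044g00580) had 1007, 937 and 921 FPKM in GAG-1103P and 942, 926 and 867 FPKM in GAG-3309C, and ubiquitin (Vv16s0098g01190) had 1019.9, 1095 and 1079 FPKM in GAG-1103P and 1080.0, 1123 and 1051 FPKM in GAG-3309C. The libraries overlapped in both genes, and the differences did not pass the test (log2 fold change -0.07 ± 0.05, adjusted p = 0.289 for actin; log2 fold change 0.03 ± 0.06, adjusted p = 0.753 for ubiquitin). For the leaf label, a list of 12 photosynthesis genes was read. Of these, 8 were at 1 FPKM or more in every GAG-1103P library and 9 or 10 in the GAG-3309C libraries. The list was drawn from genes the study chose for their differences from GAG-1103P. The share of all genes at that level is not given. These counts therefore cannot tell whether the samples were leaf, and no conclusion is drawn from them.

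In GAG-3309C 9205 genes, 43.1% of those tested, were DEGs against GAG-1103P. Of these, 4701 (22.0%) were higher and 4504 (21.1%) lower, a near-even split, and it became 5554 higher and 3535 lower when all libraries were scaled to the same FPKM total. Most changes were small. In 7039 DEGs (76.5%) the difference was less than 2-fold, and the median absolute log2 fold change of the DEGs was 0.58. At the 4-fold limit the split was uneven, with 395 genes higher (1.85% of those tested) and 85 lower (0.398%), 480 in all (2.25%). The GAG-3309C libraries all lay above those of GAG-1103P in 388 of the 395, and all below in 81 of the 85, against 25.7% and 26.0% of all genes tested. The 395 and 85 genes were chosen for large differences in these same libraries, so that the lack of overlap follows from the choice and is no separate evidence. Without the A libraries of all combinations the 4-fold DEGs were 344 higher and 84 lower. In 29 of the 395 every GAG-1103P library was listed at 0, and in 22 of the 85 every GAG-3309C library was.

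**Figure D1:**
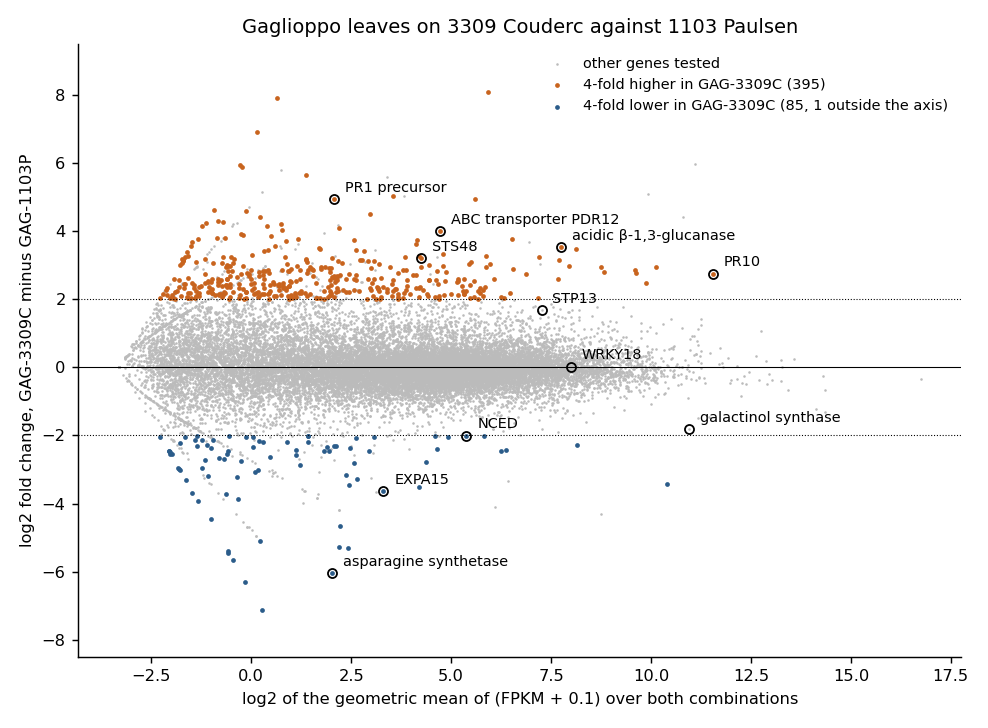
Each point is a gene tested, with its mean level in both combinations on the horizontal axis (log2 of FPKM + 0.1) and its log2 fold change, GAG-3309C minus GAG-1103P, on the vertical axis. The 395 genes at least 4-fold higher in GAG-3309C outnumber the 85 at least 4-fold lower. Dotted lines mark the 4-fold limits, and Vv05s0077g01580, listed at 0 in GAG-3309C, lies outside the axis.

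Functions were read from the published annotation of 2692 genes, among which 344 of the 480 4-fold DEGs were found. These genes had been chosen on the same libraries, so that counts over them are a description and not independent evidence. Of the 344, 302 were higher and 42 lower. Secondary metabolism held 71 of them among its 216 genes (69 higher, 2 lower; 20.6% of the 344). Signal transduction held 42 among 263 (41 higher, 1 lower), response to stress 40 among 256 (39 higher, 1 lower) and transport 25 among 242 (22 higher, 3 lower). Over all annotated genes the share was 344 of 2692. Secondary metabolism was well above that share, signal transduction and response to stress slightly above it, and transport below it. In response to hormone stimulus, with 147 genes, the 4-fold DEGs were 12 higher and 7 lower. Over all 2692 annotated genes 1296 were called higher and 550 lower, with a median log2 fold change of 0.46, beside 0.00 over all genes tested. The lists described below were drawn from these genes, so that their counts are to be read beside these shares. The leading members of a list are the DEGs with the largest changes that had at least 1 FPKM in every library of the higher combination and no overlap between the combinations. The lack of overlap given for leading members, and for the genes of largest change further below, follows from this choice and is no separate evidence.

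Stilbene synthases form resveratrol, the core of the grapevine phytoalexins, from coumaroyl-CoA and malonyl-CoA. All 40 annotated stilbene synthases were called higher in GAG-3309C, and 37 passed the 4-fold limit (median log2 fold change 2.59). Their values summed to between 381 and 418 FPKM in the GAG-1103P libraries and between 2504 and 2717 FPKM in the GAG-3309C libraries. VvSTS16 (Vv16s0100g00920) had 3.06, 3.30 and 3.53 FPKM in GAG-1103P and 21.4, 20.5 and 19.0 FPKM in GAG-3309C. VvSTS48 (Vv16s0100g01200) had 5.89, 6.95 and 5.72 FPKM in GAG-1103P and 60.1, 57.0 and 56.0 FPKM in GAG-3309C. The replicates of each combination lay close together and far from the other combination in both genes (2.59 ± 0.07 and 3.20 ± 0.07 on the log2 scale, adjusted p = 1.92e-11 and 3.81e-12). The leading members were Vv16s0100g00750 (1.51 ± 0.0650 FPKM in GAG-1103P and 21.4 ± 1.37 FPKM in GAG-3309C; 3.74 ± 0.08) and Vv16s0100g01120 (0.889 ± 0.0937 FPKM in GAG-1103P and 10.9 ± 0.240 FPKM in GAG-3309C; 3.47 ± 0.08). Most of these genes carry neighbouring Vv16s0100 identifiers. Of the 35 genes tested between the first and the last of them, 34 were 4-fold DEGs, all higher, and the exception was Vv16s0100g00960, listed at 0 in 5 of the 6 libraries and at 0.125 FPKM in the other. These genes are near-identical copies, and the way reads were shared between them by the authors' mapping could move the values of single members.

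The enzymes before the stilbene step moved in the same direction. All 13 phenylalanine ammonia-lyases, which take the first step from phenylalanine, were called higher (8 at least 4-fold, median log2 fold change 2.08), as were all 6 cinnamate 4-hydroxylases and 4-coumarate ligases (median 1.70), the enzymes of the following steps. The most abundant of the named members was the trans-cinnamate 4-monooxygenase Vv11s0065g00350, with 43.6, 45.6 and 46.9 FPKM in GAG-1103P and 392, 266 and 262 FPKM in GAG-3309C. Replicate A was the highest of the GAG-3309C libraries, and even the lowest of them lay far above GAG-1103P (log2 fold change 2.73 ± 0.12, adjusted p = 1.42e-09). In the cinnamate 4-hydroxylase Vv11s0078g00290 the mean was 1.59 ± 0.0130 FPKM in GAG-1103P and 10.4 ± 1.91 FPKM in GAG-3309C (2.62 ± 0.13). Phenylalanine ammonia-lyase Vv11s0016g01660 had 0.767 ± 0.253 FPKM in GAG-1103P and 7.54 ± 1.06 FPKM in GAG-3309C (3.17 ± 0.26), and Vv11s0016g01520 had 0.196 ± 0.0501 FPKM in GAG-1103P and 1.49 ± 0.0551 FPKM in GAG-3309C (2.44 ± 0.17). Without the A libraries all 13 phenylalanine ammonia-lyases stayed called and 5 of them were at least 4-fold higher.

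Branches of the pathway differed. Laccases, copper oxidases that polymerize phenols, had 12 of 16 members called higher and none lower (median 1.18, and 8 of 16 without the A libraries). The leading members were Vv18s0117g00550 (14.8 ± 0.978 FPKM in GAG-1103P and 84.8 ± 6.32 FPKM in GAG-3309C; 2.51 ± 0.08) and Vv18s0122g00690 (0.998 ± 0.0515 FPKM in GAG-1103P and 4.002 ± 0.921 FPKM in GAG-3309C; 1.88 ± 0.16). The flavonoid and anthocyanin list was divided, with 22 of 43 members called higher and 11 lower (median 0.67). The flavonoid 3-O-glucosyltransferase Vv03s0017g02120, of a class of enzymes that attach glucose to flavonoids, had 4.34, 5.43 and 4.74 FPKM in GAG-1103P and 65.2, 55.6 and 60.3 FPKM in GAG-3309C. All libraries of GAG-3309C lay far above those of GAG-1103P (log2 fold change 3.62 ± 0.08, adjusted p = 3.82e-12), and the neighbouring Vv03s0017g02140, annotated as a chalcone glucosyltransferase, rose alike (3.16 ± 0.10). The list's decreases were smaller, with -1.28 ± 0.24 for the anthocyanidin glucoside malonyltransferase Vv12s0134g00590 and -1.03 ± 0.28 for the anthocyanidin glucosyltransferase Vv18s0041g00930. Terpenoid networks had 14 of 36 members higher and 9 lower (median 0.13). (-)-Germacrene D synthase Vv18s0001g04280, a sesquiterpene synthase, had 4.75, 5.16 and 4.35 FPKM in GAG-1103P and 64.2, 64.6 and 67.2 FPKM in GAG-3309C, without overlap (log2 fold change 3.76 ± 0.07, adjusted p = 1.06e-12). Copalyl diphosphate synthase Vv07s0151g01070, which makes a precursor of diterpenes, rose by 3.06 ± 0.10 to 15.5, 13.4 and 12.6 FPKM. In the same list CYP72A1 (Vv13s0067g00110) fell, from 13.7, 15.8 and 16.3 FPKM in GAG-1103P to 1.25, 2.04 and 1.66 in GAG-3309C (-3.15 ± 0.15). Glutathione S-transferases, which couple glutathione to reactive compounds, had 10 of 13 members higher and 2 lower (median 1.18), with the largest increase in Vv08s0040g00920 (2.89 ± 0.16) and the largest decrease in GSTZ1 Vv12s0035g02100 (-1.29 ± 0.17).

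**Figure D2:**
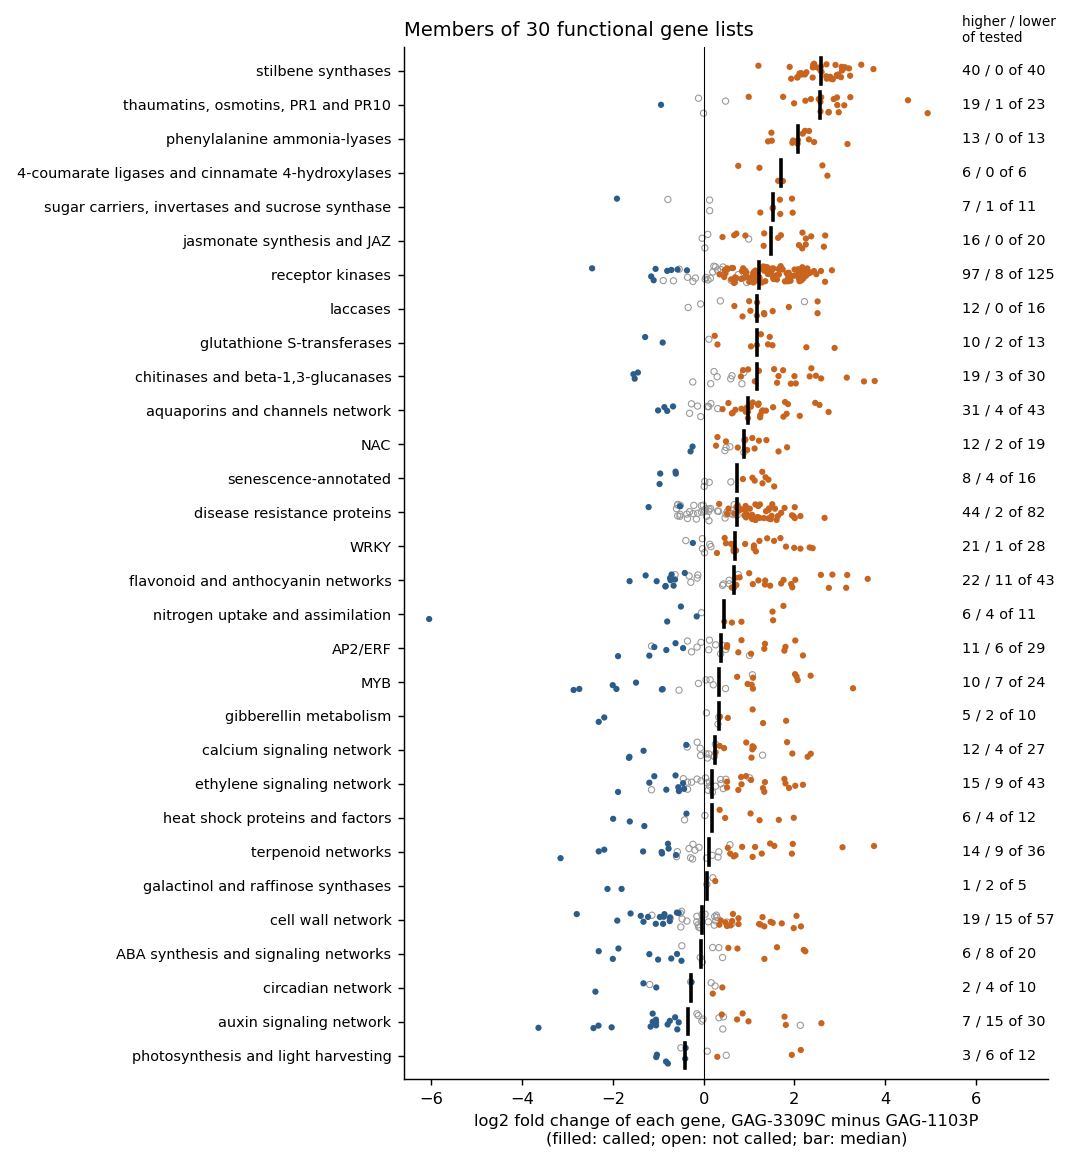
Rows are 30 functional lists in the order of their median, and points are the member genes with their log2 fold change, GAG-3309C minus GAG-1103P (orange higher and blue lower among DEGs, open not called; black bar, median). Stilbene synthases (median 2.59, 40 of 40 higher) stand at the top, and the photosynthesis list (median -0.40, 3 higher and 6 lower of 12) at the bottom.

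PR proteins were the second group with large changes. Of 23 thaumatins, osmotins, PR1 and PR10 proteins, 19 were called higher, 16 of them at least 4-fold, and 1 lower (median 2.58). The PR1 precursor Vv03s0088g00700, of a family long used as a marker of salicylate responses, had 0.715, 0.463 and 0.826 FPKM in GAG-1103P and 19.9, 27.2 and 22.3 FPKM in GAG-3309C. The thaumatin Vv02s0025g04230 had 1.604, 1.90 and 1.16 FPKM in GAG-1103P and 41.8, 36.6 and 32.6 FPKM in GAG-3309C. In both genes the GAG-1103P libraries were below 2 FPKM and those of GAG-3309C above 19 FPKM (4.94 ± 0.21 and 4.50 ± 0.14; adjusted p = 1.82e-09 and 9.63e-11). These were the largest increases among all annotated genes that met the limits for leading members. The 1 thaumatin called lower, Vv04s0023g03550, had 28.9 ± 2.93 FPKM in GAG-1103P and 15.1 ± 2.14 FPKM in GAG-3309C (-0.94 ± 0.13).

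Chitinases and β-1,3-glucanases, which cut fungal cell wall polymers and callose, had 19 of 30 members higher (9 at least 4-fold) and 3 lower (median 1.17). The β-1,3-glucanase Vv08s0007g06060 had 26.3, 23.1 and 24.2 FPKM in GAG-1103P and 374, 319 and 318 FPKM in GAG-3309C. The acidic glucan endo-1,3-β-glucosidase Vv06s0061g00100 had 70.4, 60.2 and 57.6 FPKM in GAG-1103P and 919, 694 and 599.7 FPKM in GAG-3309C. Both lay without overlap above GAG-1103P, with replicate A the highest of GAG-3309C (3.77 ± 0.08 and 3.53 ± 0.16; adjusted p = 3.81e-12 and 2.58e-09). The members called lower included 2 glucan endo-1,3-β-glucosidase 7 precursors, of which Vv19s0090g01070 fell from 192, 163 and 154 to 57.7, 67.2 and 61.2 FPKM (-1.45 ± 0.12) and Vv12s0059g01320 had a log2 fold change of -1.52 ± 0.22.

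The PR10 genes of the Vv05s0077 identifiers, small proteins of the Bet v I fold, were among the most abundant transcripts that changed. Vv05s0077g01570 had 1122, 1214 and 1137 FPKM in GAG-1103P and 7668, 8023 and 7695 FPKM in GAG-3309C. Vv05s0077g01530, picked after its values were seen like the other PR10 genes here, had 295, 305 and 304 FPKM in GAG-1103P and 2063, 2075 and 1984 FPKM in GAG-3309C. In both, GAG-3309C was higher by close to the same amount (2.75 ± 0.06 and 2.76 ± 0.05), and Vv05s0077g01540, Vv05s0077g01550, Vv05s0077g01560 and Vv05s0077g01690 rose by between 2.54 and 3.23 on the log2 scale. The next identifier, Vv05s0077g01580, which the annotation used here does not cover, went the other way, as did Vv05s0077g01590 after it, which was below 1 FPKM in all 6 libraries (log2 fold change -1.58 ± 0.56, adjusted p = 0.0365). Vv05s0077g01580 had 39898, 39863 and 38339 FPKM in GAG-1103P, between 2.32% and 2.39% of the FPKM total of those libraries, and was listed at 0 in all 3 GAG-3309C libraries. Over the 12 libraries of the other combinations it lay between 38339 and 54662 FPKM. It was the only gene listed at 0 in all libraries of 1 combination and at 20 FPKM or more in all 12 others, in any of the 5 combinations. An exact 0 in FPKM can be a failed estimate, so no fold is given, and whether the transcript was missing or its value was not estimated was not tested. The other 11 genes of this stretch of identifiers gave values in at least 1 library of GAG-3309C. As with the stilbene synthases, similar copies could share reads.

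**Figure D3:**
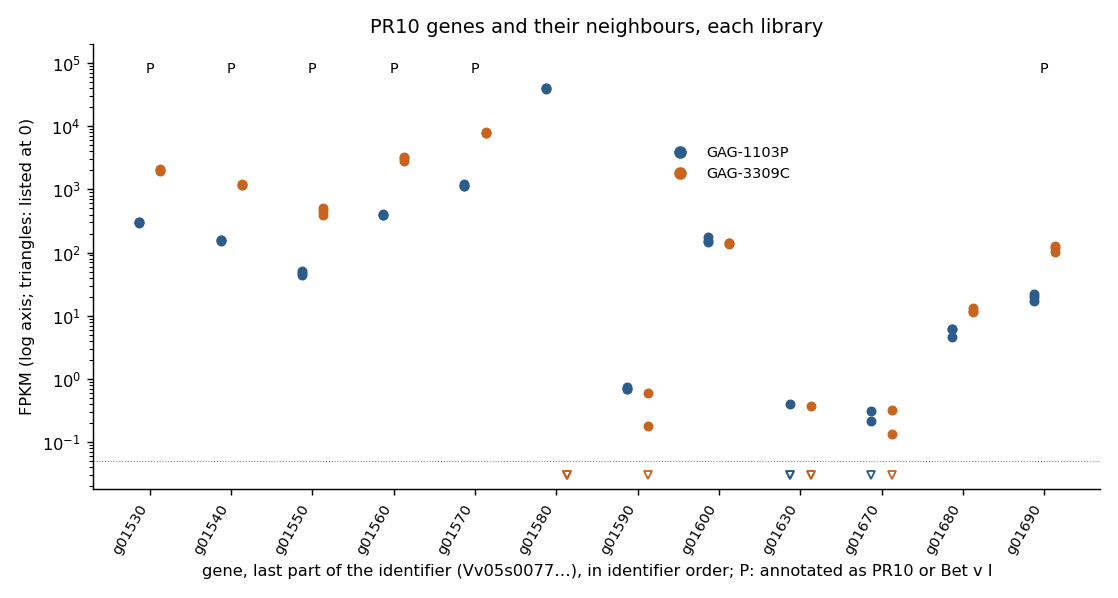
FPKM of each library (log axis) for 12 genes in the order of their identifiers, GAG-1103P in blue and GAG-3309C in orange, with triangles for values listed at 0. The 6 genes annotated as PR10 or Bet v I (P) lie higher in GAG-3309C in every library, and g01580, at 38339 FPKM or more in GAG-1103P, is listed at 0 in GAG-3309C.

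Genes for perception and signaling come next. Of 125 receptor kinases, which sense ligands at the cell surface, 97 were called higher and 8 lower (24 and 1 at the 4-fold limit, median 1.22). Wall-associated receptor kinase 2 Vv18s0041g00020 had 0.350, 0.385 and 0.337 FPKM in GAG-1103P and 3.77, 2.88 and 2.86 FPKM in GAG-3309C, and wall-associated receptor kinase 5 Vv18s0041g00030 had 1.68, 1.51 and 1.49 FPKM in GAG-1103P and 11.9, 10.4 and 9.45 FPKM in GAG-3309C. Both were low in all 3 GAG-1103P libraries (2.83 ± 0.13 and 2.68 ± 0.12). The receptor kinase homolog Vv16s0050g01880 fell to values below 0.3 FPKM (-2.46 ± 0.20). Disease resistance proteins, intracellular receptors mostly of the NBS-LRR class, had 44 of 82 members higher and 2 lower, but 4 at the 4-fold limit (median 0.73). Over all 2692 annotated genes 1296 were higher and 344 were 4-fold DEGs. The share of these proteins called higher was near that of the whole set, and their 4-fold share was below it. The largest increase was that of 2.67 ± 0.20 in Vv01s0011g00990, at 1.64, 1.90 and 2.01 FPKM in GAG-3309C. Of 43 aquaporins and channels 31 were higher and 4 lower (median 0.97), led by copper transporter 2 (Vv03s0110g00360; 1.99 ± 0.204 FPKM in GAG-1103P and 14.1 ± 2.72 FPKM in GAG-3309C; 2.76 ± 0.25) and glutamate receptor 2.8 (Vv19s0014g01760; 2.55 ± 0.20). In the calcium list 12 of 27 were higher, near the share of all annotated genes, and 4 lower (median 0.26). The list's 2 genes annotated as calmodulin that the rule names moved apart, Vv04s0023g01100 by 1.84 ± 0.12 and Vv18s0001g11830 by -1.64 ± 0.15.

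WRKY factors bind W-box elements in promoters of defence genes. Of 28 WRKY genes 21 were called higher and 1 lower, 3 at least 4-fold (median 0.69). VvWRKY40 (Vv09s0018g00240) had 128, 143 and 147 FPKM in GAG-1103P and 283, 326 and 318 FPKM in GAG-3309C, with all GAG-3309C libraries higher (log2 fold change 1.15 ± 0.08, adjusted p = 1.94e-07). VvWRKY18 (Vv04s0008g05760) had 247, 265 and 247 FPKM in GAG-1103P and 242, 267 and 262 FPKM in GAG-3309C. The libraries overlapped, and the 95% interval of the difference was -0.09 to 0.13 on the log2 scale (adjusted p = 0.785). A second gene annotated as WRKY18 with the preceding identifier, Vv04s0008g05750, had 8.74, 7.92 and 7.30 FPKM in GAG-1103P and 36.1, 43.7 and 42.6 FPKM in GAG-3309C and was among the 4-fold DEGs (log2 fold change 2.34 ± 0.09, adjusted p = 9.07e-10). WRKY75 (Vv14s0068g01770), a regulator tied to phosphate starvation and senescence in Arabidopsis, rose by 2.40 ± 0.36, from 1.06, 1.002 and 0.268 to 5.06, 3.44 and 3.72 FPKM. The 1 WRKY gene called lower was WRKY48 (Vv05s0077g00730), by -0.24 ± 0.05, a call that was lost when the libraries were scaled to the same FPKM total (adjusted p = 0.0570).

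NAC factors had 12 of 19 members higher and 2 lower, none at the 4-fold limit (median 0.89). Over all 2692 annotated genes 1296 were higher and 550 lower. VvNAC39 (Vv07s0031g02610) had 669, 619 and 632 FPKM in GAG-1103P and 821, 742 and 761 FPKM in GAG-3309C. VvNAC17 (Vv19s0014g03290) had 434, 414 and 406 FPKM in GAG-1103P and 347, 344 and 336 FPKM in GAG-3309C. The differences were small, VvNAC39 being higher in GAG-3309C (log2 fold change 0.27 ± 0.05, adjusted p = 0.00115) and VvNAC17 lower (log2 fold change -0.29 ± 0.04, adjusted p = 9.13e-05). The libraries did not overlap in either gene. This was common, since 25.7% of all genes tested were higher and 26.0% lower in GAG-3309C without overlap. The leading NAC increases were in 2 genes annotated as NAC42, Vv19s0027g00860 (1.84 ± 0.28) and Vv12s0028g00860 (61.9 ± 4.47 FPKM in GAG-1103P and 162 ± 2.38 FPKM in GAG-3309C; 1.38 ± 0.06). MYB genes went both ways, 10 of 24 higher and 7 lower (median 0.35), among them MYB78 (Vv07s0005g01950; 3.29 ± 0.21) and MYB68 (Vv11s0016g02780; 2.36 ± 0.11), and in the other direction MYB102 (Vv19s0014g03820; -2.86 ± 0.25) and WEREWOLF 1 (Vv17s0000g08480; -2.74 ± 0.61), named for an Arabidopsis regulator of root epidermis cells. Of the 3 genes annotated as MYB14, a name tied to stilbene synthase activation in grapevine and picked here after the values were seen, 2 rose, Vv05s0049g01020 from 37.9, 41.0 and 44.2 to 85.1, 87.4 and 89.3 FPKM (1.09 ± 0.08) and Vv07s0005g03340 from 33.6, 39.7 and 38.1 to 66.4, 76.8 and 75.2 FPKM (0.97 ± 0.08). The third, Vv12s0134g00490, stayed below 1 FPKM in all 6 libraries and was lower in GAG-3309C (log2 fold change -0.90 ± 0.29, adjusted p = 0.0253).

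The AP2/ERF family, which contains the ethylene response factors, was also divided (11 of 29 higher, 6 lower, median 0.38), as was the ethylene signaling network (15 of 43 higher, 9 lower, median 0.19), which shares genes with it. ERF003 (Vv04s0008g06000) had 51.1, 44.5 and 43.9 FPKM in GAG-1103P and 12.1, 14.1 and 11.4 FPKM in GAG-3309C, without overlap (log2 fold change -1.89 ± 0.12, adjusted p = 4.85e-08), while ERF14 (Vv05s0049g00490) rose by 2.19 ± 0.20 and ERF098 (Vv07s0005g03200) by 2.02 ± 0.24. Jasmonate synthesis and the JAZ repressors moved one way. Of 20 genes 16 were called higher and none lower, 8 at least 4-fold (median 1.49). Along the pathway, lipoxygenase LOX1 (Vv06s0004g01470), of a family that oxidizes polyunsaturated fatty acids, had 1.75, 1.64 and 1.51 FPKM in GAG-1103P and 14.9, 9.51 and 8.77 FPKM in GAG-3309C (2.65 ± 0.16). 12-oxophytodienoate reductase 1 (Vv18s0041g02070), named for a later step of the pathway, had 0.190, 0.185 and 0.496 FPKM in GAG-1103P and 1.94, 2.05 and 2.85 FPKM in GAG-3309C (2.68 ± 0.28). Replicate A was highest for the lipoxygenase and not for the reductase, and neither gene overlapped between the combinations. The allene oxide synthase Vv18s0001g11630 and the allene oxide cyclase Vv14s0083g00110, picked after their values were seen as the abundant members of the steps between, had 40.9 ± 4.67 FPKM in GAG-1103P and 193 ± 76.1 FPKM in GAG-3309C (2.17 ± 0.21) and 18.9 ± 0.284 FPKM in GAG-1103P and 90.5 ± 4.69 FPKM in GAG-3309C (2.25 ± 0.06).

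**Figure D4:**
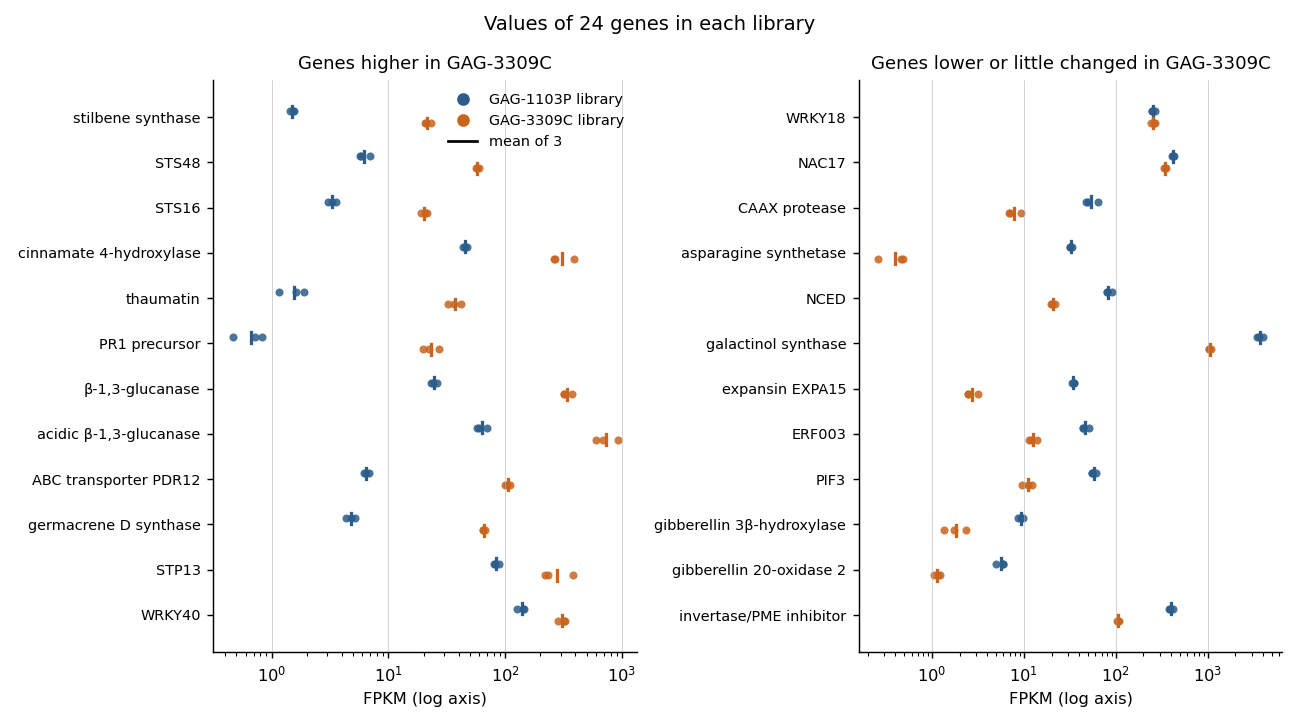
FPKM of 24 named genes on a log axis, with 1 point for each library of GAG-1103P (blue) and GAG-3309C (orange) and a bar for the mean of 3. VvWRKY18 overlaps between the combinations, NAC17 is separated by little, and asparagine synthetase shows the widest gap among the genes plotted as lower in GAG-3309C, from 31.5 FPKM or more to 0.483 FPKM or less.

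Carbon and nitrogen genes held the largest decrease of an annotated gene that met the limits for leading members. Asparagine synthetase Vv06s0004g06830, which makes the nitrogen-rich transport amide asparagine, had 33.5, 31.5 and 32.0 FPKM in GAG-1103P and 0.483, 0.460 and 0.260 FPKM in GAG-3309C. No GAG-3309C library reached 0.5 FPKM, and no GAG-1103P library was below 31 FPKM (log2 fold change -6.05 ± 0.32, adjusted p = 1.06e-08). The rest of the nitrogen list was mixed, 6 of 11 higher and 4 lower (median 0.46). The ammonium transporters 2 Vv08s0058g00140 and Vv07s0031g02950 rose by 1.76 ± 0.12 and 1.53 ± 0.11, and ammonium transporter 1;2 (Vv04s0043g00370) fell by 0.80 ± 0.17 on the log2 scale. Of 11 sugar carriers, invertases and sucrose synthases 7 were higher and 1 lower (median 1.52), but none at the 4-fold limit. VvSTP13 (Vv05s0020g03140), a hexose carrier of the plasma membrane, had 89.4, 80.9 and 81.8 FPKM in GAG-1103P and 384, 234 and 221 FPKM in GAG-3309C. All GAG-3309C libraries were above GAG-1103P, with replicate A well above B and C (log2 fold change 1.69 ± 0.16, adjusted p = 2.10e-06). The MtN3 genes, of the family of SWEET sugar exporters, moved apart, Vv17s0000g00830 to 70.8, 34.6 and 30.9 FPKM (1.96 ± 0.32) and Vv14s0066g01420 to 1.11, 0.482 and 0.727 FPKM (-1.91 ± 0.35). Galactinol synthase, the first enzyme of raffinose synthesis, was called higher in 1 and lower in 2 of 5 genes. The most abundant copy, Vv01s0127g00470, had 4009, 3619 and 3428 FPKM in GAG-1103P and 1034, 1093 and 1025 FPKM in GAG-3309C, without overlap (log2 fold change -1.81 ± 0.07, adjusted p = 5.17e-10).

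In the ABA networks 6 of 20 genes were higher and 8 lower (median -0.05). VvNCED (Vv02s0087g00930) encodes a 9-cis-epoxycarotenoid dioxygenase, the enzyme of the rate-limiting cleavage in ABA synthesis. It had 90.3, 79.5 and 79.8 FPKM in GAG-1103P and 19.7, 22.0 and 20.4 FPKM in GAG-3309C. The libraries of GAG-3309C all lay below those of GAG-1103P, and the difference only just reached the 4-fold limit (log2 fold change -2.0 ± 0.11, adjusted p = 2.37e-08). It fell short of that limit without GAG-1103P replicate A (-1.94) and without the A libraries (-1.91), while the gene stayed called. The leading increases of the list were in less abundant genes, the Bet v I gene Vv13s0067g01940 (2.24 ± 0.18) and AWPM19 Vv10s0003g02620 (2.21 ± 0.37).

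In the auxin network 15 of 30 members were lower and 7 higher (median -0.35). Its leading decrease was the expansin EXPA15 (Vv01s0026g02620), of a family that loosens cell walls during growth, with 34.9, 35.5 and 33.5 FPKM in GAG-1103P and 2.48, 3.19 and 2.45 FPKM in GAG-3309C. GAG-3309C was far below in all libraries (log2 fold change -3.64 ± 0.24, adjusted p = 8.18e-08). IAA29 (Vv11s0016g05640), an auxin response repressor, fell from 3.83, 5.54 and 5.40 to 0.931, 0.910 and 0.653 FPKM (-2.43 ± 0.38), whereas expansin-like B1 (Vv02s0012g00830) rose from 2.13, 1.97 and 2.84 to 15.9, 15.5 and 11.9 FPKM (2.60 ± 0.16). In gibberellin metabolism, 5 of 10 genes were higher and 2 lower, and the latter were enzymes of synthesis. Gibberellin 3β-hydroxylase Vv09s0002g05270 had 9.30, 8.68 and 9.69 FPKM in GAG-1103P and 1.75, 2.35 and 1.36 FPKM in GAG-3309C (log2 fold change -2.31 ± 0.19, adjusted p = 7.02e-07). Gibberellin 20-oxidase 2 (Vv18s0001g06690) had 5.00, 5.89 and 5.86 FPKM in GAG-1103P and 1.04, 1.17 and 1.23 FPKM in GAG-3309C (log2 fold change -2.19 ± 0.30, adjusted p = 7.33e-05). Neither overlapped between the combinations, and those called higher included 2 genes annotated as the gibberellin receptor GID1L3, Vv15s0048g01390 (22.4 ± 0.655 FPKM in GAG-1103P and 79.4 ± 2.67 FPKM in GAG-3309C; 1.82 ± 0.05) and Vv15s0048g01350 (1.31 ± 0.14).

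The cell wall list was even, 19 of 57 higher and 15 lower (median -0.04). Inhibitors of invertase and pectin methylesterase led its decreases. The abundant Vv16s0022g00890 had 393, 415 and 382 FPKM in GAG-1103P and 104, 106 and 108 FPKM in GAG-3309C, and Vv01s0011g05390 had 18.7, 14.7 and 12.8 FPKM in GAG-1103P and 2.65, 1.93 and 1.83 FPKM in GAG-3309C. Both were separated between the combinations (-1.90 ± 0.11 and -2.79 ± 0.27). The extensin Vv15s0048g02970 rose by 2.05 ± 0.39, with 14.2, 3.68 and 3.91 FPKM in GAG-3309C, so that replicate A decided its size. Without that library the log2 fold change was 1.42 (adjusted p = 6.22e-05). The cellulose synthase-like gene CSLE1 (Vv04s0044g00770) rose by 2.14 ± 0.67 and became 2.79 without GAG-1103P replicate A, whose value of 0.992 FPKM stood above the others of its group, and it was no longer called without GAG-1103P replicate B (1.81, adjusted p = 0.0821) or C (1.84, adjusted p = 0.0791).

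Photosynthesis genes of the annotated set were lower more often than higher, 6 against 3 of 12 (median -0.40), and their values summed to between 482 and 523 FPKM in GAG-1103P and between 361 and 376 FPKM in GAG-3309C. The only member at the 4-fold limit, 1 gene, was higher in GAG-3309C. Without the A libraries 5 were lower and 1 higher, with 0 at that limit. In bulk leaf samples, fewer cells of a type and less RNA per cell cannot be told apart. The iron-sulfur subunit of the cytochrome b6f complex, PETC (Vv12s0134g00510), had 80.8, 77.2 and 72.4 FPKM in GAG-1103P and 34.8, 38.4 and 39.6 FPKM in GAG-3309C (-1.03 ± 0.08), and the photosystem II gene psbZ (Vv12s0059g01810) fell by nearly the same amount (-1.04 ± 0.12). Of 10 circadian genes 4 were lower and 2 higher (median -0.28). PIF3 (Vv07s0005g02510), a phytochrome-interacting transcription factor, had 55.6, 55.0 and 61.5 FPKM in GAG-1103P and 9.57, 12.2 and 11.1 FPKM in GAG-3309C, and CONSTANS 2 (Vv14s0083g00640) had 353, 374 and 362 FPKM in GAG-1103P and 137, 155 and 143 FPKM in GAG-3309C. In both the GAG-3309C libraries were all lower (log2 fold change -2.38 ± 0.10, adjusted p = 2.13e-09 for PIF3; log2 fold change -1.33 ± 0.05, adjusted p = 7.13e-10 for CONSTANS 2). Heat shock proteins and factors were divided, with 6 of 12 higher, near the share of all annotated genes, and 4 lower. The rise of the factors HSFB3 (Vv08s0007g08750; 1.99 ± 0.13) and HSF4 (Vv07s0031g00670; 1.66 ± 0.10) stood beside falls in the small chaperones HSP22.7 (Vv12s0035g01910; -1.63 ± 0.30) and the class IV protein Vv18s0089g01270 (-1.99 ± 0.26). Near the shares of all annotated genes, 8 of 16 genes annotated with senescence were higher and 4 lower (median 0.73). Their summed values were lower in GAG-3309C, 1616 to 1680 FPKM against 2054 to 2285 FPKM in GAG-1103P. SAG101 (Vv14s0066g01840) rose by 1.36 ± 0.28 and the senescence-associated protein Vv05s0077g02100 changed by -0.96 ± 0.12.

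Outside the lists, the rule for named genes took the largest changes. ABC transporter PDR12 (Vv09s0002g05560), of a subfamily that exports secondary metabolites, had 6.23, 6.48 and 6.77 FPKM in GAG-1103P and 111, 99.9 and 105 FPKM in GAG-3309C, without overlap (log2 fold change 3.99 ± 0.05, adjusted p = 6.29e-14). The ankyrin repeat genes Vv11s0016g01530 and Vv11s0016g01670 had 22.2, 15.1 and 18.5 FPKM and 8.12, 5.62 and 6.13 FPKM in GAG-3309C and no more than 1.22 and 0.582 FPKM in any GAG-1103P library (4.09 ± 0.26 and 4.05 ± 0.25). Late embryogenesis abundant proteins Vv00s0301g00150 and Vv00s0301g00120, of a class that accumulates under drying, were higher at low levels of 2.29 to 3.38 FPKM (4.30 ± 0.25 and 3.91 ± 0.23). The EF-hand gene Vv19s0014g03970 had 0, 1.47 and 0 FPKM in GAG-1103P and 3.76, 5.42 and 4.66 FPKM in GAG-3309C, and its log2 fold change of 4.22 ± 0.81 rests on GAG-1103P replicate B, without which GAG-1103P is listed at 0 and no fold is given.

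Among the decreases, PQ-loop repeat protein Vv04s0023g01110 went from 17.8, 20.2 and 19.3 to 1.67, 1.90 and 2.15 FPKM (-3.27 ± 0.13) and CAAX protease Vv16s0050g01870 from 64.2, 49.99 and 46.8 to 9.29, 6.84 and 7.07 FPKM (-2.78 ± 0.17). The phytochelatin synthetase gene Vv03s0038g01430 fell by 3.01 ± 0.45 on the log2 scale, with all GAG-3309C values below 0.63 FPKM. An abundant gene with no hit in the annotation, Vv19s0090g01340, described here after its values were seen, had 4521, 4651 and 4211 FPKM in GAG-1103P and 453, 439.9 and 353 FPKM in GAG-3309C (log2 fold change -3.43 ± 0.09, adjusted p = 2.66e-11). Of the genes without annotation named by the rule, Vv08s0040g01510 reached 26.7, 22.8 and 22.9 FPKM in GAG-3309C, whereas all GAG-1103P libraries were listed at 0 (adjusted p = 0.00442). Vv10s0042g00850, whose identifier lies among those of stilbene synthases, had 0, 0 and 48.7 FPKM in GAG-1103P and 200.5, 144 and 338 FPKM in GAG-3309C, and the single library with a value in GAG-1103P, replicate C, decided the size (8.09 ± 1.73). Without it GAG-1103P is listed at 0, and without the A libraries the gene was not called (adjusted p = 0.0710). Vv01s0026g00410 was listed at 0 in GAG-3309C and had 10.5, 21.6 and 11.6 FPKM in GAG-1103P. Its call (adjusted p = 0.0278) was lost when any 1 of the 6 libraries was left out (adjusted p between 0.0567 and 0.0765).

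To find what was particular to 3309 Couderc, GAG-3309C was tested against each of the other 4 combinations. In 355 genes (1.66% of those tested) it was higher than all 4, and in 670 (3.14%) lower. That split turned to 627 higher and 398 lower when the libraries were scaled to the same FPKM total, so the balance of directions depends on the scaling, which moved the median over all genes by 0.46 on the log2 scale against GAG-41B and by 0.15 against GAG-KOB. The differences were small in most of these genes, with a median of the smallest of the 4 log2 fold changes of 0.34 among the higher and 0.38 among the lower ones, and at least 2-fold against all 4 in 27 and 20 genes. None of the 40 stilbene synthases and none of the 13 phenylalanine ammonia-lyases was among them, and of the thaumatin and PR list 5 were, with 4 chitinases and β-1,3-glucanases, all higher. The genes higher than in all 4 include the PR10 genes Vv05s0077g01560 and Vv05s0077g01570, close to Vv05s0077g01580, which is listed at 0 only in GAG-3309C. With Vv05s0077g01580 included, the values of this stretch of identifiers summed to 14470 to 15309 FPKM in GAG-3309C and 40544 to 42181 FPKM in GAG-1103P. The stilbene synthases stood between the extremes, since 37 of the 40 were called lower in GAG-3309C than in GAG-KOB (18.7% of all genes tested) and 39 lower than in GAG-41B (31.7% of all genes). Against GAG-17-37 10 were higher (7.37% of all genes) and 1 lower (9.53%).

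A pair of neighbouring genes for alcohol dehydrogenase, which makes ethanol from acetaldehyde, was among the genes higher than in all 4. Alcohol dehydrogenase 2 (Vv04s0044g01130) had 57.9, 53.2 and 59.8 FPKM in GAG-1103P and 133, 171 and 187 FPKM in GAG-3309C and 41.8 ± 1.18 FPKM in GAG-KOB, 64.2 ± 2.94 in GAG-17-37 and 8.17 ± 0.567 in GAG-41B. Its neighbour alcohol dehydrogenase 6 (Vv04s0044g01110), described after its values were seen, had 1145, 1179.7 and 1177 FPKM in GAG-1103P and 2218, 2815 and 2776 FPKM in GAG-3309C and 813 ± 32.4 FPKM in GAG-KOB, 1034 ± 42.8 in GAG-17-37 and 147 ± 6.22 in GAG-41B. The genes here and in the next paragraphs were chosen for standing apart from all 4 others, so the rank of GAG-3309C follows from the choice. In both alcohol dehydrogenases GAG-3309C was the highest of the 5 combinations, with no library of another combination reaching its lowest library (1.51 ± 0.10 and 1.15 ± 0.08 against GAG-1103P). Between them Vv04s0044g01120, without annotation here, rose alike (1.45 ± 0.09), and the next identifier, Vv04s0044g01140, did not pass the test (log2 fold change 0.10 ± 0.05, adjusted p = 0.149). The β-1,3-glucanase Vv08s0007g06010 had 0.871 ± 0.476 FPKM in GAG-1103P and 5.46 ± 1.94 FPKM in GAG-3309C, and 1.56 ± 0.786 FPKM in GAG-KOB, 2.10 ± 0.333 in GAG-17-37 and 2.13 ± 0.228 in GAG-41B. Its level was low, and it passed against all 4 combinations.

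Also higher than in all others, and described after their values were seen, were a Kelch repeat F-box protein (Vv05s0094g01590; 47.6 ± 6.03 FPKM in GAG-1103P and 166 ± 32.0 FPKM in GAG-3309C; 1.79 ± 0.17) and ACC oxidase 2 (Vv11s0016g02380; 7.02 ± 0.724 FPKM in GAG-1103P and 17.7 ± 3.42 FPKM in GAG-3309C; 1.31 ± 0.19), an enzyme of ethylene synthesis. The abundant thaumatin Vv02s0025g04300 had 89.3, 92.3 and 80.1 FPKM in GAG-1103P and 694, 695 and 672 FPKM in GAG-3309C, beside 356 ± 11.4 FPKM in GAG-KOB, 304 ± 16.3 in GAG-17-37 and 122 ± 1.12 in GAG-41B. The ABC transporter PDR12 given above stood at 51.4 ± 2.21 FPKM in GAG-KOB, 55.3 ± 1.09 in GAG-17-37 and 48.9 ± 1.86 in GAG-41B, so that GAG-3309C was the highest and GAG-1103P the lowest of the 5 in both genes.

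Of the other genes that the rule names as higher in GAG-3309C than in all 4, none had an annotation here. Vv03s0063g00970 had 0.305, 0.122 and 0.392 FPKM in GAG-1103P and 21.2, 18.3 and 13.8 FPKM in GAG-3309C, and 2.74 ± 0.391 FPKM in GAG-KOB, 3.34 ± 0.504 in GAG-17-37 and 2.05 ± 0.395 in GAG-41B. Its neighbours Vv03s0063g00990 and Vv03s0063g01010 moved with it (5.64 ± 0.27, 4.59 ± 0.35 and 4.27 ± 0.47 against GAG-1103P), while the genes on either side of the group, Vv03s0063g00960 and Vv03s0063g01020, did not pass the test (adjusted p = 0.0558 and 0.053). Vv03s0063g01760 had 29.7 ± 3.53 FPKM in GAG-1103P and 77.9 ± 8.196 FPKM in GAG-3309C (1.39 ± 0.26). Vv12s0028g01560 had 11.6, 4.32 and 3.10 FPKM in GAG-3309C, with replicate A far above the others, and a log2 fold change of 1.48 ± 0.40.

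Apart from Vv05s0077g01580, the genes named as lower in GAG-3309C than in all 4 were also without annotation. Vv11s0016g00560 had 42.3, 33.2 and 33.8 FPKM in GAG-1103P and 16.2, 13.2 and 11.2 FPKM in GAG-3309C, and 48.1 ± 4.15 FPKM in GAG-KOB, 36.0 ± 2.07 in GAG-17-37 and 110.4 ± 8.33 in GAG-41B. Vv03s0091g00230 had 30.2 ± 0.941 FPKM in GAG-1103P and 12.5 ± 2.08 FPKM in GAG-3309C, and 51.4 ± 1.84 FPKM in GAG-KOB, 32.9 ± 1.82 in GAG-17-37 and 53.7 ± 0.616 in GAG-41B. In both, which were chosen for this, GAG-3309C was the lowest of all combinations (-1.43 ± 0.13 and -1.27 ± 0.09 against GAG-1103P). Vv03s0038g00340, Vv17s0000g08680, Vv01s0026g02330 and Vv02s0488g00030 had log2 fold changes of -1.48, -1.57, -1.55 and -1.75. Vv09s0070g00070 had 0, 0 and 6.18 FPKM in GAG-3309C and 9.17, 11.7 and 9.35 FPKM in GAG-1103P (-4.67 ± 1.24). Without GAG-3309C replicate C it is listed at 0 there, and without the A libraries it was not called (adjusted p = 0.143).

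Of the 2692 annotated genes, 40 were lower than in all others, 8 of them in response to hormone stimulus. The next genes were picked from them after their values were seen. YUCCA5 (Vv07s0005g04800), of a family of auxin synthesis enzymes, had 5.31, 5.10 and 5.50 FPKM in GAG-1103P and 1.25, 1.17 and 1.26 FPKM in GAG-3309C (-2.03 ± 0.13), and 3.38 ± 0.651 FPKM in GAG-KOB, 3.63 ± 0.122 in GAG-17-37 and 2.204 ± 0.152 in GAG-41B. IAA12 (Vv07s0005g04380) had 26.2, 28.4 and 26.9 FPKM in GAG-1103P and 13.7, 11.6 and 14.03 FPKM in GAG-3309C (-1.05 ± 0.07), and 39.8 ± 0.253 FPKM in GAG-KOB, 24.1 ± 1.23 in GAG-17-37 and 129 ± 9.01 in GAG-41B. GAG-3309C was lowest in both, but the order of the others differed, with GAG-1103P highest for YUCCA5 and GAG-41B for IAA12. VvNAC17, given above, belonged to this group too, at 569.6 ± 17.4 FPKM in GAG-KOB, 518 ± 12.02 in GAG-17-37 and 1690.1 ± 24.2 in GAG-41B, as did gibberellin 3β-hydroxylase Vv09s0002g05270, at 9.45 ± 0.954 FPKM in GAG-KOB, 9.13 ± 1.42 in GAG-17-37 and 2.57 ± 0.509 in GAG-41B.

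**Figure D5:**
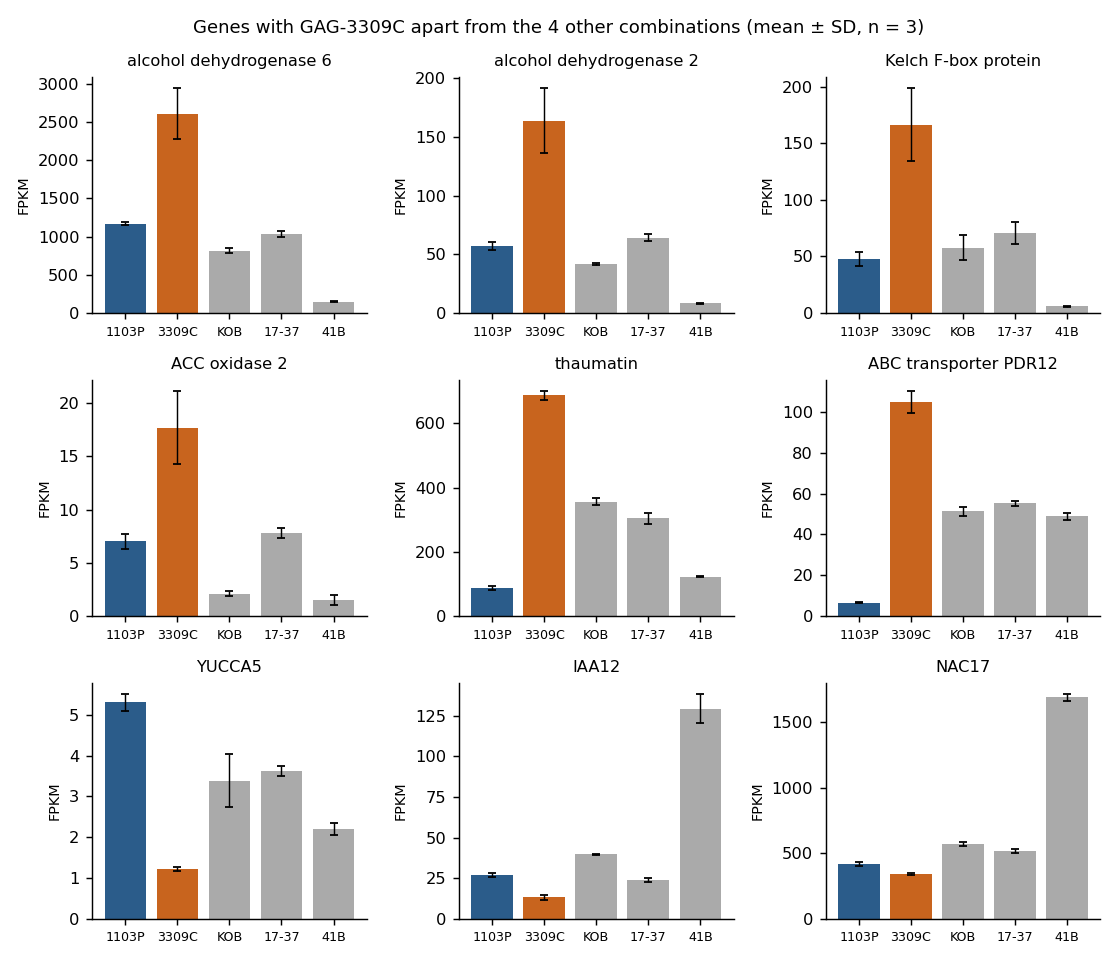
Mean ± SD (n = 3 libraries) of FPKM in the 5 combinations for 9 genes in which GAG-3309C differed from all 4 others in the same direction, GAG-1103P in blue, GAG-3309C in orange and the others in grey. Alcohol dehydrogenase 6 is at 2603 FPKM in GAG-3309C and at 1167 FPKM in GAG-1103P, and the bottom row shows the 3 genes lowest in GAG-3309C.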

How the data were processed

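RNA of 15 leaf pools, 3 for each of 5 graft combinations, was sequenced by the authors from unstranded TruSeq libraries, and overlapping or antisense genes therefore cannot be told apart. Per the study's methods, filtered single-end reads were aligned to the PN40024 grapevine genome with TopHat2 2.0.14 and Bowtie2 2.2.4, and the deposited FPKM values were made by the authors with Cufflinks 2.2.0 and its geometric normalization. The file holds 1 FPKM value for each of 29970 genes and each library. It carries no counts per gene. The study lists the mapped reads of each library, which were not used here.

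Values were taken as log2(FPKM + 0.1), and 21364 genes that averaged 0.1 FPKM or more across the 15 libraries were kept. All libraries entered 1 linear model, with a mean per combination, in limma 3.58.1 (R 4.3.3; moderated statistics with a trend on the mean), and p-values were adjusted over all genes by the method of Benjamini and Hochberg. The fit was tested on simulated data. A gene was called at an adjusted p of 0.05 or less. A single value compared between 3 and 3 libraries by an exact two-sided permutation test could not go below p = 0.1, so no such test is given. Genes that set GAG-3309C apart were called in the same direction in all 4 contrasts with the other combinations.

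Functions come from the study's annotated gene lists (2692 genes, and 1146 further genes used only for names). No gene identifier matched the RefSeq table used here, so no coordinates or sequences are given. The members and lists were chosen with earlier results of these data known, and the 30 lists were built from words in the annotation and network names. The genes named are those the study names with an identifier, the 8 largest annotated increases and decreases and the 2 largest without annotation in each direction, the 2 leading increases and decreases of each list, and the 8 genes in each direction that set GAG-3309C apart most, each under the limits on level and overlap given above; others are said to have been picked after their values were seen. Other pseudocounts, filters, scalings and sets of libraries were tried, and the replicate letter was tried as a block.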

Additional observations from a re-analysis of the deposited data

How the results depend on the processing

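Of 3559 values of the 132 named genes under the other settings, 3529 stayed in the same direction on the same side of the threshold, and 26, in 12 genes, lost significance. The other 4 changed sign, in 3 genes that were called in no setting. Actin (Vv04s0044g00580) went to 0.013 with the same FPKM total, ubiquitin (Vv16s0098g01190) to -0.00056 without the A libraries and between -0.0035 and 0.050 when 1 library was left out, and VvWRKY18 (Vv04s0008g05760) between -0.0075 and 0.062 when 1 library was left out. When 1 of the 15 libraries was left out, the DEGs numbered 7989 to 9362 (4094 to 4750 higher, 3895 to 4612 lower), the 4-fold DEGs 439 to 523 (348 to 437 higher, 80 to 91 lower) and the genes that set GAG-3309C apart 838 to 1027 (266 to 356 higher, 567 to 673 lower). A pseudocount of 1 left 184 4-fold DEGs (158 higher, 26 lower), since it shrinks the fold changes of low values. A filter at a mean of 1 FPKM left 47 4-fold DEGs lower. The stricter adjusted p of 0.005 gave 5901 DEGs (3096 higher, 2805 lower), 53 4-fold DEGs lower and 486 genes that set GAG-3309C apart (141 higher, 345 lower). With the same FPKM total in every library 61.1% of the DEGs were higher, and 627 genes that set GAG-3309C apart were higher and 398 lower. That scaling moved the median log2 fold change over all genes by 0.07 against GAG-1103P, 0.46 against GAG-41B and 0.15 against GAG-KOB. It also turned the medians of the ABA list to 0.02 and of the cell wall list to 0.04, and quantile normalization turned that of the terpenoid list to -0.06.

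Same-letter libraries of GAG-3309C and GAG-1103P were not taken as pairs, as their deviations from the group means correlated at 0.02, -0.05 and -0.04 across 17852 genes. Over all 5 combinations 4 of 30 same-letter correlations exceeded 0.1 (highest 0.198), all between A libraries, beside 5 of 60 between different letters. With the replicate letter as a block there were 10959 DEGs, 486 4-fold DEGs and 1600 genes that set GAG-3309C apart, 596 of them higher. Without the A libraries these numbers were 9562, 428 and 1348. The FPKM values alone do not show how far depth limits the genes of low level.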

Other observations

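Genes at least 4-fold higher in GAG-3309C than in GAG-1103P often carried neighbouring identifiers. There were 18 runs of at least 3 neighbouring genes tested that were all 4-fold DEGs in 1 direction, with 88 genes in all, and every run was higher in GAG-3309C. Among them were 2 runs of 17 Vv16s0100 identifiers, not all of them annotated as stilbene synthases, and the PR10 run. Another held 4 dirigent proteins, which guide the coupling of phenoxy radicals to lignans (Vv06s0004g01000 to Vv06s0004g01030, log2 fold changes 2.59 to 3.47). Further runs held 3 genes of which those annotated are peroxidases (Vv12s0055g01010 to Vv12s0055g01030, 2.36 to 3.23) and 3 photoassimilate-responsive PAR-1a genes (Vv16s0050g00400 to Vv16s0050g00430, 2.02 to 2.61). Aspartyl proteases were in 2 runs (Vv04s0008g07130 to Vv04s0008g07150, 2.78 to 2.86, and Vv04s0008g07220 to Vv04s0008g07250, 2.17 to 2.63). Neighbouring copies can share reads, so that members of a run are not independent, and the part of shared reads in these runs was not tested.

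Pentatricopeptide repeat proteins, which act on RNA in chloroplasts and mitochondria, had the lowest median of the annotated groups. Of 33 such genes 11 were lower in GAG-3309C and 2 higher, with a median log2 fold change of -0.27 and none at the 4-fold limit. Of all genes tested 21.1% were lower and 22.0% higher. The median was also below 0 in DNA/RNA metabolism (-0.20), cell wall metabolism (-0.05), developmental process (-0.02) and the genes of unknown function (-0.01). Scaling to the same FPKM total moved the median over all genes by 0.07 against GAG-1103P. The sign of the values nearest 0 can therefore depend on the scaling. In lipid metabolism 44 of 77 genes were higher and 18 lower (median 0.69), and in carbohydrate metabolism 79 of 141 were higher and 27 lower (median 0.61). Over all 2692 annotated genes, chosen on the same libraries, 1296 were higher and 550 lower (median 0.46), so that both groups moved largely as the whole set did.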
